A study of Homo sapiens with 38 samples.

Results

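The tumour suppressor p53 is a transcription factor that switches on genes for cell cycle arrest, apoptosis, DNA repair and its own control, and its target genes are read widely as a sign of stress to DNA. Here 9 of these targets were followed, CDKN1A, MDM2, GDF15, BBC3, BAX, FAS, TP53I3, SESN1 and TNFRSF10B, chosen by symbol as well-known targets. They are 9 of the 25504 genes of the expression table. All 9 were among the 10865 genes called expressed, which had a mean FPKM (fragments scaled by exon length and by the mapped fragments of the library) of at least 1 over the libraries. For MDM2, FAS and SESN1 this mean was reached although at least 1 library was below 1.

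RNA was sequenced from the RKO line, which comes from a human colorectal cancer, with a single library for each of 8 conditions. The vehicle was 0.1% DMSO, given alone or with NCD38 or one of its conjugates NCD38-β2P4 and NCD38-β2PIPP at 2 μM, for 30 or 4 days. Below, 4 values of a day stand in the order DMSO, NCD38, NCD38-β2P4, NCD38-β2PIPP, and 3 values in the same order without DMSO. For day 4 the study's text prints another unit for this dose than the labels, which give 2 μM for both days. NCD38 inhibits LSD1 (KDM1A), a histone demethylase that is also known to remove methyl groups from p53. The conjugates are NCD38 joined through a linker of β-alanine residues to a pyrrole-imidazole polyamide, a small molecule that lies in the minor groove of DNA. The polyamide of NCD38-β2P4 carries pyrrole rings alone and reads 6 bases that are each A or T, whereas in NCD38-β2PIPP an imidazole ring replaces a pyrrole and the conjugate reads CG with 2 such bases on each side. Since each condition is 1 culture of 1 cell line, no spread within a condition is known. The samples of the 2 days were also separate collections, so day cannot be told apart from passage, library preparation or sequencing run.

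p53 works through a loop. Damaged DNA activates the kinases ATM and ATR, which free p53 from MDM2, a ubiquitin ligase that marks p53 for degradation, and from its relative MDM4. The free protein then induces its targets, MDM2 included, so that MDM2 limits the response that produced it. CDKN1A encodes p21, the inhibitor of cyclin-dependent kinases that halts the cell cycle. BAX and BBC3 (PUMA) act on mitochondria in apoptosis, FAS and TNFRSF10B (DR5) are death receptors on the cell surface, TP53I3 (PIG3) is an oxidoreductase, SESN1 is a stress protein that restrains mTORC1, and GDF15 is a secreted stress cytokine. In GRCh37 the annotation places CDKN1A at chr6:36644237-36655114, SESN1 at chr6:109305512-109416049 and MDM2 at chr12:69201957-69239324. BBC3 (chr19:47724079-47736023), BAX (chr19:49458072-49465055) and GDF15 (chr19:18485541-18499986) share a chromosome. FAS lies at chr10:90750414-90775542 and TP53I3 at chr2:24300303-24308731.

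Because the conjugates bind short DNA sequences, the promoters of the targets were searched for the sequences they read and for the p53 half-site, a motif of 10 letters. Each motif reads the same on both strands. RefSeq (GRCh38.p14) gave the 250 bases before 15 start sites of 8 of the 9 genes. TNFRSF10B is not among them. A run of 6 bases that are each A or T lay before at least 1 start site of 5 of the 8 genes (GDF15, BAX, TP53I3, MDM2 and SESN1). Per start site it was found in 7 of 15 (46.7%), beside 58.7% of all 35116 promoters of the same length. CG between 2 such bases on each side occurred before 1 of the 15 start sites (6.67%), one of SESN1, beside 13.9% of all promoters. A p53 half-site was found before 2 of the 15 (13.3%), one of FAS and the same one of SESN1, beside 5.57% of all. Of these upstream sequences 3 are shown, without bases that the annotation places in an exon, since CDKN1A holds none of the motifs, MDM2 holds an A/T run before the downstream of its start sites, and SESN1 is the gene with all 3. Capitals mark the motif matches. Their places, found by exact match in GRCh37, are chr6:36646241-36646486 on the plus strand for CDKN1A, chr12:69202547-69202781 on the plus strand for MDM2 and chr6:109330192-109330441 on the minus strand for SESN1.
CDKN1A: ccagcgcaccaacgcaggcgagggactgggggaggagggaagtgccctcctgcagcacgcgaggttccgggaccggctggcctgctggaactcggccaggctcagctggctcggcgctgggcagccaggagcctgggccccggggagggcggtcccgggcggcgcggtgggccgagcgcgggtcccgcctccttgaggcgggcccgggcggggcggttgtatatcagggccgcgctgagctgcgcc
MDM2: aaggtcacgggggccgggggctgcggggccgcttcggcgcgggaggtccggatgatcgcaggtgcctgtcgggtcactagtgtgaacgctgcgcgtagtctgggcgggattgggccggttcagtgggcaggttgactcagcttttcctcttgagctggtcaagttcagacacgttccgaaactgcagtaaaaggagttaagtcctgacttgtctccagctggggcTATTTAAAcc
SESN1: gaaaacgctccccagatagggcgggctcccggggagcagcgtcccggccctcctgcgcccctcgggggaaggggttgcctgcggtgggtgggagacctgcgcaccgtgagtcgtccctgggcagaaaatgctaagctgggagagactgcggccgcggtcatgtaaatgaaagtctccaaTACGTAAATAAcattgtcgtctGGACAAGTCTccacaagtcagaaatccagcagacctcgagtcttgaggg
In the SESN1 sequence the first run of capitals is the CG motif, TACGTA, overlapped by the A/T run, and the second is the p53 half-site. GC content was 76.8% in the CDKN1A sequence, 60% in that of MDM2 and 60.4% in that of SESN1. MDM2 is known to have an internal promoter that p53 drives, in addition to an upstream one. The 250 bases before its upstream start sites hold none of the 3 motifs. The p53 half-site was searched as an exact match of all 10 letters, so sites that differ in 1 letter were not found. A sequence without such a match, that before the downstream start site of MDM2 included, may thus still hold a p53 site. A match in these letters is a description and not a binding site, and histone marks at these promoters were not analysed here.

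The targets spanned a wide range of levels. On day 30 BAX had the highest mean FPKM of the 9 (114), followed by CDKN1A (57.2), TNFRSF10B (34.6), BBC3 (27.7), GDF15 (14.3), TP53I3 (13.7), MDM2 (8.69), FAS (3.03) and SESN1 (2.27). In that order, the ranges over the 4 libraries overlapped between TNFRSF10B and BBC3, between GDF15 and TP53I3 and between FAS and SESN1. On day 4 the same 3 genes led, with mean FPKM of 197 for BAX, 177 for CDKN1A and 42.8 for TNFRSF10B. BAX and CDKN1A overlapped there, as did GDF15 and TP53I3, MDM2 and SESN1, and SESN1 and FAS.

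No protein was measured. MDM4, which restrains p53 together with MDM2, had 3.79, 4.09, 3.52 and 3.55 on day 30 and 0.818, 0.37, 1.38 and 1.84 on day 4. KDM1A, the target of the inhibitors, had 42.0, 46.1, 45.6 and 39.4 on day 30 and 56.6, 38.0, 69.9 and 72.1 on day 4, which says nothing of its activity. Among the relatives of p53, TP63 was listed at 0 in all 8 libraries and TP73 lay between 1.65 and 8.32.

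RKO was checked by markers. Of 8 markers of colorectal epithelium 4 were expressed, KRT8, KRT18, EPCAM and CDX2, whereas VIL1 and KRT20 were listed at 0 in every library and CDH1 and KRT19 did not exceed 0.0642 and 0.467. Of 5 markers of other cell types, PTPRC, CD3E and PECAM1 were listed at 0 throughout, and COL1A1 and ALB did not exceed 0.0129 and 0.0591. EPCAM was higher on day 30 (2.11, adjusted p = 0.000546 in limma), when it lay between 3.94 and 6.53, than on day 4, when it lay between 0.0922 and 0.867. KRT8 was at 6.58 with NCD38 on day 30, beside 15.4 with DMSO (log2 ratio -1.12).

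**Figure D1:**
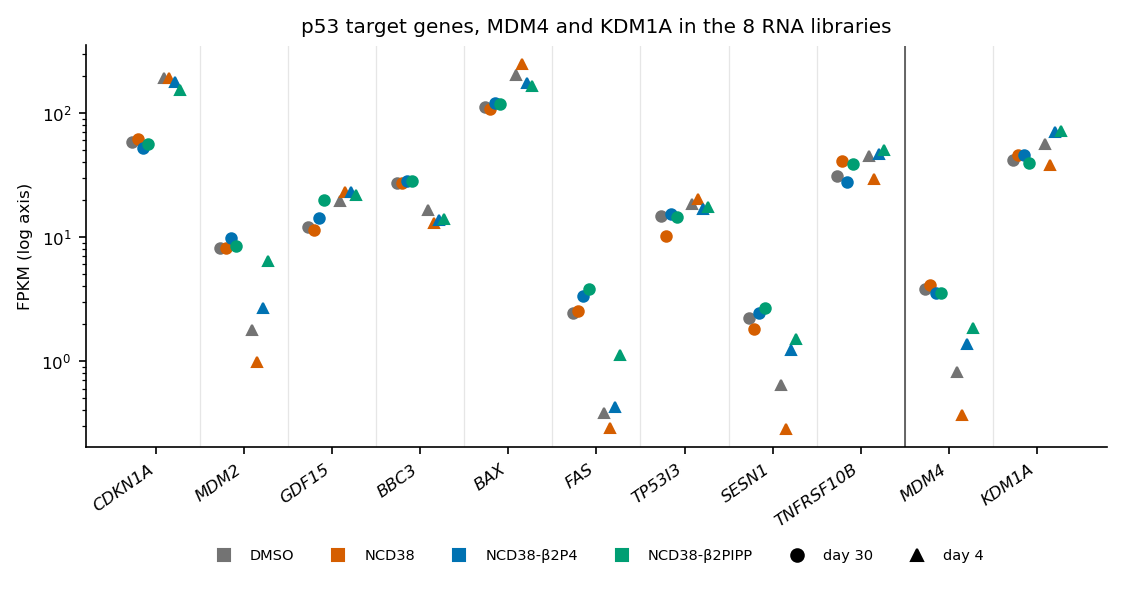
FPKM on a log axis of the 9 p53 targets and, right of the dark line, of MDM4 and KDM1A. Each point is 1 library, colour stands for treatment, circles for day 30 and triangles for day 4. The circles of CDKN1A (52.5 to 61.9) lie below all its triangles (153 to 191), those of MDM2 (8.16 to 9.89) above all of its (0.978 to 6.37).

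The first question was whether LSD1 inhibition, alone or directed to DNA sequences, moved the targets. Few and small differences were found. Each inhibitor library was set against DMSO of its own day by the log2 ratio of FPKM plus 1, and a 2-fold ratio was counted as changed. Of the 54 ratios (9 genes, 3 inhibitors, 2 days), 1 reached 2-fold, MDM2 with NCD38-β2PIPP on day 4. Over all expressed genes, 2-fold in either direction was reached on day 30 by 1.66%, 1% and 1.17% and on day 4 by 5.41%, 1.91% and 11.2%. The 54 ratios of the targets ran from -0.61 to 1.41. Beside this spread, 32 of the 54 lay beyond their 95% counting half-widths, which were between 0.0509 and 1.13 on the log2 scale without a pseudocount and cover counting error alone. The share of all expressed genes beyond such half-widths was not computed. This count thus shows nothing particular to the targets.

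On day 30 the median ratios of the 9 targets were -0.0027, 0.092 and 0.0859, beside medians over all expressed genes of 0.0592, 0.0622 and -0.0143. On day 4 they were -0.0983, 0.0499 and 0.137, beside -0.209, 0.0949 and 0.175. Among the targets 4, 7 and 7 of 9 were above DMSO on day 30, beside 59.0%, 62.1% and 46.2% of all expressed genes. On day 4 these were 3, 5 and 5 of 9, beside 31.7%, 65.0% and 63.6%. When the median of all genes was set to 0, 9 of the 54 ratios changed sign, and 7 of these were smaller than 0.1 in size. The remaining pair were GDF15 and TNFRSF10B with NCD38-β2PIPP on day 4.

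CDKN1A stayed level under the inhibitors on day 30, with FPKM of 58.4, 61.9, 52.5 and 56.0. On day 4 it was 191, 189, 176 and 153. The lowest ratio was thus that of NCD38-β2PIPP on day 4, at -0.32, with a counting half-width of 0.0535. No inhibitor library of either day was above its DMSO library by more than 0.0825 on the log2 scale.

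MDM2 had 8.18, 8.16, 9.89 and 8.52 on day 30, a narrow range, and 1.76, 0.978, 2.65 and 6.37 on day 4. Its ratio with NCD38-β2PIPP on day 4 was 1.41 (1.85 ± 0.214 without a pseudocount, counting half-width), higher than 97.6% of expressed genes. With NCD38 on the same day it was -0.48, so that the inhibitors parted in direction. MDM2 has a transcript of low GC content (39.5%), and on day 4 the ratios of the 20% of expressed genes lowest in GC had medians of -0.35, 0.34 and 0.78. After the median of genes of like GC content was subtracted, the MDM2 ratio of FPKM plus 1 with NCD38-β2PIPP was 0.61, under 2-fold.

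FAS and SESN1, with GC contents of 39.1% and 40.6%, showed the same order of libraries on day 4. FAS had 2.45, 2.54, 3.34 and 3.78 on day 30 and 0.379, 0.288, 0.428 and 1.11 on day 4. SESN1 had 2.21, 1.8, 2.42 and 2.66 on day 30 and 0.638, 0.282, 1.23 and 1.5 on day 4. NCD38 was thus the lowest and NCD38-β2PIPP the highest of the 4 libraries of day 4 for MDM2, FAS and SESN1 alike. With NCD38-β2PIPP on day 4 the ratios of FAS and SESN1 were both 0.61. Without a pseudocount they were 1.55 ± 0.814 and 1.24 ± 0.437 (counting half-width), both over 2-fold, with DMSO below an FPKM of 1. After the GC trend was subtracted from the ratios of FPKM plus 1, they were -0.19 and -0.17. The added 1 makes ratios at such low FPKM smaller, while the trend is a median over expressed genes of all levels. The signs of both values are thus uncertain. On day 30 FAS kept its ratio with NCD38-β2PIPP after the GC trend was subtracted (0.47 before, 0.46 after), beside a counting half-width of 0.325.

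GDF15 was highest with NCD38-β2PIPP on day 30, at 19.7, beside 11.9 with DMSO, 11.4 with NCD38 and 14.3 with NCD38-β2P4. The ratio of 0.68 was above that of 98.8% of expressed genes, beyond its counting half-width of 0.213, and 0.71 after the GC trend was subtracted. On day 4 the 4 libraries were close, at 19.4, 22.9, 23.2 and 21.9, and the ratio with NCD38-β2PIPP was 0.17. No second library of either condition tells whether these values would return.

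BBC3 had 27.2, 27.2, 28.1 and 28.2 on day 30, the smallest range of the 9 targets. On day 4 it had 16.6, 12.9, 13.6 and 14.0, so that the 3 inhibitor libraries were below DMSO, with ratios of -0.34, -0.27 and -0.23. BAX had 111, 107, 121 and 118 on day 30 and 201, 249, 175 and 165 on day 4. It was above DMSO with NCD38 on day 4 and below it with both conjugates.

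TP53I3 had 14.7, 10.1, 15.3 and 14.6 on day 30 and 18.3, 20.2, 16.6 and 17.4 on day 4. The library of NCD38 on day 30 stood apart, with a ratio of -0.5 and a counting half-width of 0.215. TNFRSF10B had 31.1, 40.9, 27.5 and 39.0 on day 30 and 45.2, 29.3, 47.0 and 49.8 on day 4. NCD38 gave the highest TNFRSF10B value of day 30 and the lowest of day 4, with ratios of 0.39 and -0.61. With the GC trend removed they came to 0.35 and -0.26.

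**Figure D2:**
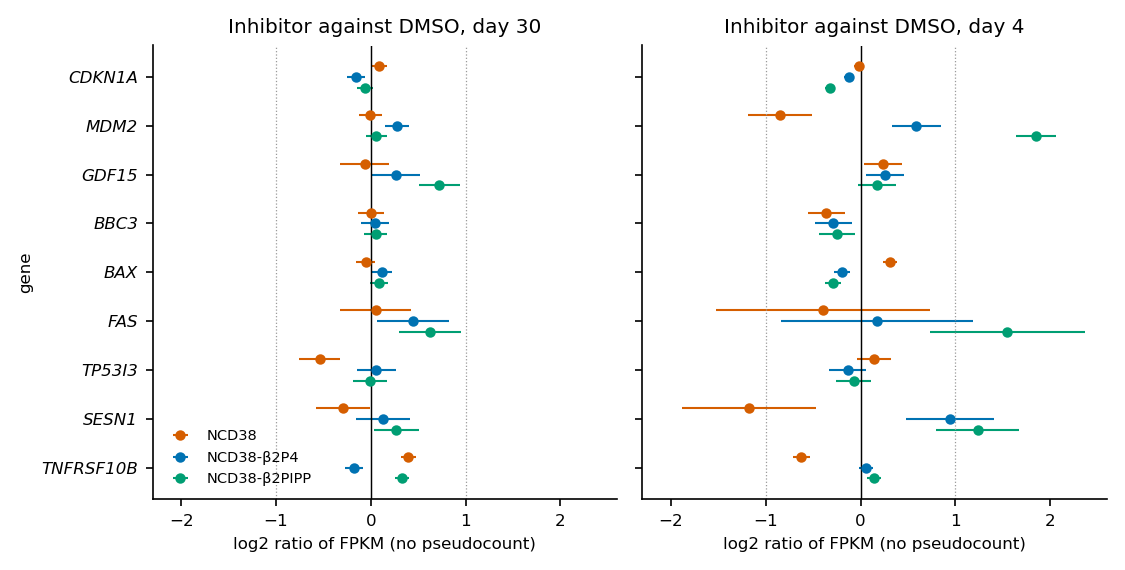
Log2 ratio of FPKM without a pseudocount between each inhibitor library and same-day DMSO, for the 9 targets. Bars are 95% counting half-widths and do not hold the spread between cultures, and dotted lines mark 2-fold. MDM2, FAS and SESN1 spread most on day 4, from -1.18 for SESN1 with NCD38 to 1.85 for MDM2 with NCD38-β2PIPP.

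With both days taken as blocks, no inhibitor moved a target past the test. limma was fitted to log2(FPKM + 1) of all 10865 expressed genes over the 8 libraries, with treatment and day as terms, so that the residual spread was that of inhibitor effects between the days. For the mean of the 3 inhibitors against DMSO, 0 of 9 targets passed a Benjamini-Hochberg adjusted p of 0.05 in limma, and 0 had an unadjusted p under 0.05. The share called among all genes was 0.0276%. The estimates ran from -0.12 for BBC3 to 0.27 for MDM2, with 95% half-intervals between 0.296 and 0.924. Single inhibitors gave the same count of 0 of 9, beside 0.0368%, 0.0184% and 0.0184% of all genes called. Of the unadjusted p-values for these 3 contrasts, that of FAS with NCD38-β2PIPP was under 0.05 (0.54, 95% interval 0.0144 to 1.07, adjusted p = 0.982 in limma), as it was for 0.571% of all genes in that contrast. After the median of genes of like GC content was subtracted, FAS was at 0.11, and GDF15 was the target with an unadjusted p under 0.05 (0.48, adjusted p = 1 in limma). The share of all genes with an unadjusted p under 0.05 after this subtraction was not computed. As deposited, the interval for MDM2 reached from -0.4 to 1.87 with NCD38-β2PIPP, so that a change of over 3-fold and no change both lie within it.

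The 3 compounds were compared with each other in the same fit, at the one dose and over both days, which made 3 pairs. Between NCD38-β2P4 and NCD38, 0 of 9 targets passed, beside 0.0092% of all genes, and the targets' differences were between -0.17 and 0.57. Between NCD38-β2PIPP and NCD38, 0 of 9 passed, beside 0.0184% of all genes. Here FAS (0.57, 95% interval 0.0449 to 1.1) and SESN1 (0.68, 0.0837 to 1.27) had unadjusted p-values under 0.05 in limma, each with an adjusted p = 0.53, and 6.37% of all genes had such an unadjusted p. After the GC trend was subtracted these differences were -0.0016 and 0.11. GDF15 alone of the 9 then had an unadjusted p under 0.05 (0.53, adjusted p = 0.725 in limma). The share of all genes with such a p was again not computed. The conjugates differ by the ring that replaces a pyrrole. Between NCD38-β2P4 and NCD38-β2PIPP, 0 of 9 targets passed, 0 had an unadjusted p under 0.05 and 0.0276% of all genes were called. For CDKN1A this difference was 0.057 with an interval of -0.31 to 0.42, and for MDM2 -0.41 with an interval of -1.54 to 0.72. Adjusted p-values were taken over all genes within each pair, and these intervals leave room for differences in either direction.

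Whether the inhibitor effect differed between the days was fitted as an interaction in a separate limma model, with DMSO or inhibitor, day and their product as terms. The spread in it is that between the 3 different inhibitors of a day, and DMSO has 1 library a day. 0 of 9 targets passed it in limma and 0 had an unadjusted p under 0.05, beside 0.23% of all genes called. The estimates ran from -0.35 to 0.32, with half-intervals between 0.622 and 2.25.

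The days, in contrast, differed for 7 of the 9 targets. Higher on day 30 were 4 of 9 (MDM2, FAS, BBC3 and SESN1), beside 30.2% of all expressed genes. Lower on day 30 were 3 of 9 (CDKN1A, BAX and GDF15), beside 31.7% of all. Together the targets were thus called about as often as genes at large, and in both directions. Their median difference was -0.29, beside -0.017 over all expressed genes.

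CDKN1A, the cell cycle inhibitor p21, had the lowest adjusted p of the 9. All 4 libraries of day 30 (52.5 to 61.9) were below all 4 of day 4 (153 to 191), by 3.28, 3.06, 3.36 and 2.73 times in the 4 treatments. The limma estimate was -1.61 ± 0.103 (SE, adjusted p = 0.000413). A lower amount of its RNA on day 30 was thus seen with the vehicle as with each inhibitor, and in bulk RNA fewer cells that express a gene and less RNA per cell cannot be told apart.

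BAX and GDF15 were also lower on day 30. BAX lay between 107 and 121 on day 30 and between 165 and 249 on day 4, without overlap (-0.76 ± 0.153, adjusted p = 0.00781 in limma). For GDF15 the ranges were 11.4 to 19.7 and 19.4 to 23.2, which overlap through the library of NCD38-β2PIPP on day 30. Its limma estimate was -0.6 ± 0.165 (adjusted p = 0.0239), and with libraries scaled by the median of ratios it no longer passed (adjusted p = 0.0753).

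BBC3 went the other way from BAX, its partner in mitochondrial apoptosis. It lay between 27.2 and 28.2 on day 30 and between 12.9 and 16.6 on day 4 (0.91 ± 0.123, adjusted p = 0.00195 in limma). The ratio of the days was 1.64 with DMSO and 2.11, 2.06 and 2.02 with the inhibitors.

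MDM2, FAS and SESN1 were higher on day 30 in each of the 4 treatments. The 4 ratios of MDM2 FPKM between the days were 4.63, 8.34, 3.73 and 1.34 (limma 1.47 ± 0.32, adjusted p = 0.0105). FAS differed by 1.39 ± 0.149 (adjusted p = 0.00102) and SESN1 by 0.82 ± 0.168 (adjusted p = 0.0086), both in limma. Since FAS and SESN1 were below an FPKM of 1 in at least 2 libraries of day 4, the added 1 makes these differences smaller than the ratios of FPKM, which with DMSO were 6.47 for FAS and 3.46 for SESN1.

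TP53I3 and TNFRSF10B did not pass the test between the days. TP53I3 differed by -0.4 ± 0.176 (adjusted p = 0.099 in limma). TNFRSF10B differed by -0.29 ± 0.219 (adjusted p = 0.293 in limma), and the library of NCD38 moved the other way from the other three. Without the library of NCD38 on day 30 it passed, at -0.54 (adjusted p = 0.0123 in limma), and without that of day 4 likewise (adjusted p = 0.0136). MDM4 was higher on day 30 (1.22 ± 0.241, adjusted p = 0.0074 in limma). KDM1A differed by -0.4 ± 0.202 (adjusted p = 0.134).

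The split between the targets ran beside the GC content of their transcripts. Over 10075 expressed genes the difference between days fell with GC content (Spearman's rho = -0.684 across genes, which are not independent replicates). The 20% of genes lowest in GC, below 41.4%, had a median difference of 1.34, and the 20% highest, above 59.1%, one of -0.74. MDM2, FAS and SESN1, all higher on day 30, belong to the lowest 20%, with 39.5%, 39.1% and 40.6% GC. CDKN1A (57.3%), BAX (60.8%), GDF15 (62.9%) and TP53I3 (59.4%) are rich in GC and had negative differences, and TNFRSF10B (49.7%) lay between. BBC3, with 69.7% GC and higher on day 30, stood outside this order.

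When the median of genes of like GC content was subtracted in each library, an alternative chosen after the data were seen, 3 of the 9 targets passed, beside 56.3% of all genes. CDKN1A remained lower on day 30 (-0.89 ± 0.102, adjusted p = 0.00102 in limma). BBC3 remained higher, by 1.6 ± 0.131 (adjusted p = 0.000357). TP53I3 changed its sign and passed, at 0.398 ± 0.136 (adjusted p = 0.047). The other 6 did not pass, with MDM2 at 0.27, FAS at 0.19, GDF15 at 0.19, TNFRSF10B at 0.018, BAX at -0.061 and SESN1 at -0.29, of which GDF15, SESN1 and TNFRSF10B had the opposite sign to that before. For MDM4 the difference was then 0.29 (adjusted p = 0.0692). For SESN1 and FAS, low on day 4, the added 1 had made the difference smaller before the trend was subtracted, so the sign for SESN1 is uncertain.

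**Figure D3:**
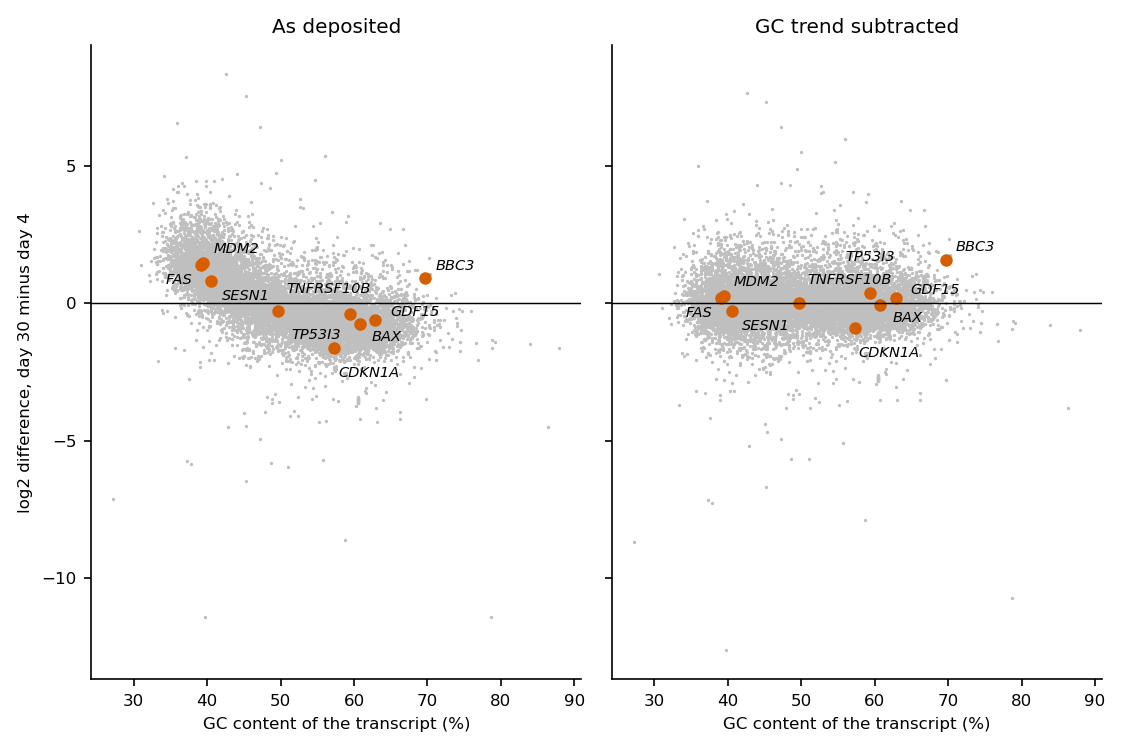
Difference between day 30 and day 4 (limma, log2 of FPKM plus 1) against the GC content of the transcript for 10075 expressed genes (grey) and the 9 targets (orange), as deposited and after the GC trend was subtracted. On the left MDM2, FAS and SESN1 follow the grey cloud of genes low in GC, and on the right CDKN1A (-0.89) and BBC3 (1.6) lie farthest from 0 among the 9.

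Genes that ran most like CDKN1A over the 8 libraries were ZBTB7B (Pearson's r = 0.999), LOC644936, PANK4 and SEMA3F (each 0.998) and FEM1A (0.998), on log2(FPKM + 1). None of these 5 is in a list of p53 targets used here. Correlations this high were common, since 1891 expressed genes were above 0.95 and 1362 were below -0.95, and they follow the split into 2 days.

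Beyond the 9, a further 33 p53 targets were looked up by list, of which 27 were expressed. Between days, 9 were higher and 11 lower on day 30 in limma, and 7 did not pass. Of the 27 this is near the shares of 30.2% and 31.7% over all expressed genes. Their median difference was -0.31, beside -0.017 over all genes. After the GC trend was subtracted 7 were higher, 7 were lower and 13 did not pass, beside 56.3% of all genes called in either direction.

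Among the targets for arrest, GADD45A, which binds PCNA and CDK1, was higher on day 30 by 2.39 ± 0.282 (adjusted p = 0.00134 in limma). It had 67.1, 77.2, 67.1 and 70.7 on day 30 and 11.7, 6.56, 15.7 and 20.5 on day 4. SFN (14-3-3σ), BTG2 and PLK3 fell by 1.45, 0.92 and 0.44 on the log2 scale, with adjusted p-values between 0.000931 and 0.0348 in limma. GADD45A, SFN and BTG2 kept direction and call after the GC trend was subtracted (2.7, -0.66 and -0.62), and PLK3 did not (0.26, adjusted p = 0.0633).

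Of the 9 expressed apoptosis targets, 3 were higher and 4 lower on day 30 in limma, beside 30.2% and 31.7% of all genes. RPS27L, a ribosomal protein paralogue induced by p53, differed most. It had 171, 133, 172 and 183 on day 30 and 12.5, 6.98, 16.2 and 21.8 on day 4 (3.52 ± 0.193, adjusted p = 0.00038 in limma, and 2.59 after the GC trend was subtracted). Reads of such genes can be shared with near-identical copies, so this value is uncertain. The BH3-only gene PMAIP1 (NOXA) and TRIAP1 were higher by 1.77 and 1.33. The death receptor TNFRSF10A and PIDD1 fell by 1.82 and 0.85 on the log2 scale, all past the test. After the GC trend was subtracted, TRIAP1 (0.64) and TNFRSF10A (-1.51) still passed, and PMAIP1 and PIDD1 did not. PERP passed after this subtraction alone (-0.67, adjusted p = 0.00359 in limma). The counts were then 2 higher and 2 lower, beside 56.3% of all genes called in either direction.

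Of 4 DNA repair targets and 4 of metabolism, 2 of each were called between days. RRM2B, a subunit of ribonucleotide reductase, was higher on day 30 by 2.12 and DDB2, a sensor of UV damage, fell by 1.26 on the log2 scale. The feedback gene CCNG1 was higher by 2.38. TIGAR, which lowers glycolysis, was higher by 0.67 and FDXR, a mitochondrial reductase, fell by 1.26. RRM2B, DDB2 and CCNG1 kept direction and call after the GC trend was subtracted (0.53, -0.66 and 0.96), TIGAR passed with the opposite sign (-0.44) and FDXR did not pass. XPC and POLH, which act in repair and in replication past damage, were called after this subtraction alone (0.52 and -0.54, adjusted p = 0.0179 and 0.0187 in limma). Of the remaining targets, DRAM1 and ZMAT3 were higher by 1.33 and 1.14, and SUSD6 and NINJ1 fell by 0.65 and 0.57 on the log2 scale. Only DRAM1 of these 4 still passed after the subtraction (0.93).

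Against DMSO, 0 of the 27 passed the test for the mean of the inhibitors. By the 2-fold rule, 3 ratios of these genes were counted over the 6 inhibitor libraries, all in the day 4 libraries of NCD38 and NCD38-β2PIPP, where 5.41% and 11.2% of all genes reached 2-fold. CCNG1 with NCD38-β2PIPP on day 4 was higher (1.42), and TNFRSF10D and SESN2 with NCD38 on day 4 were lower (-1.13 and -1.01). CCNG1, like MDM2, is a feedback target of low GC content (38%).

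Of 18 regulators of p53, 16 were expressed, with 7 higher and 1 lower on day 30 in limma, beside 30.2% and 31.7% of all genes. After the GC trend was subtracted 5 were higher and 3 lower, beside 56.3% of all genes called in either direction. Among the lower were the checkpoint kinases CHEK1 (-0.8, adjusted p = 0.00243) and CHEK2 (-0.32, adjusted p = 0.0339 in limma). The most different were RPL23 (2.45) and RPL5 (2.41), ribosomal proteins that bind MDM2, the kinases ATR (1.83) and ATM (1.53), and the acetyltransferase KAT5 (-1.76). ATM no longer passed after the GC trend was subtracted (0.12, adjusted p = 0.52). CDKN2A, whose product ARF restrains MDM2, did not exceed 0.273 in any library. Against same-day DMSO, regulators reached 2-fold only in the day 4 libraries of NCD38 and NCD38-β2PIPP. With NCD38, USP7 (-1.21), CHEK1 (-1.04) and RPL23 (-1.04) were lower, beside 5.41% of all genes in either direction. With NCD38-β2PIPP, SIRT1 (1.28) and USP7 (1.13) were higher, beside 11.2%. For the mean of the inhibitors 0 of 16 passed in limma.

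Downstream of p21, genes of the G2/M phase are known to be lowered through the DREAM complex. Of 10 such genes, 5 passed 2-fold upward in the library of NCD38 on day 30, beside 1.66% of all genes in either direction. In that library 4 of the 9 targets and 11 of the 27 others were above DMSO, beside 59.0% of all expressed genes. PLK1 had 4.33 with DMSO and 15.8 with NCD38 (1.66), BUB1 3.67 and 9.78 (1.21), CCNB1 23.7 and 55.2 (1.18), AURKA 17.0 and 39.1 (1.16) and CCNB2 15.5 and 33.6 (1.07). All 10 were above DMSO in this library, with a median of 1.03 beside 0.0592 over all genes. CDKN1A in the same library was at 61.9, beside 58.4 with DMSO. With NCD38 on day 4 the median was -0.47 and 0 of 10 reached 2-fold, beside 5.41% of all genes. With NCD38-β2PIPP on day 4 CDK1, CCNA2 and BUB1 reached it (1.22, 1.19 and 1.17), beside 11.2% of all genes in either direction. Their transcripts have 35.4%, 41.9% and 42.1% GC. In that library the 20% of genes lowest in GC had a median ratio of 0.78. In limma 0 of 10 passed for the mean of the inhibitors. Between days 4 fell and 1 rose in limma, with PLK1 at -3.48 and CDK1 at 2.97. Over all expressed genes 31.7% were lower and 30.2% higher on day 30. After the GC trend was subtracted 9 fell and 1 rose, beside 56.3% of all genes called in either direction. CDKN1A was itself lower on day 30, and a link between these values was not tested.

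GDF15, TNFRSF10B, BBC3 and SESN2 are also known as targets of ATF4 and CHOP (DDIT3), the factors of the integrated stress response, so 6 genes of that response were read beside them. The transcript of ATF4 had 1076, 880, 879 and 974 on day 30 and 290.2, 197, 279 and 281 on day 4 (1.87 ± 0.119, adjusted p = 0.000413 in limma). DDIT3 was higher on day 30 by 2.12, ASNS by 2.07 and CHAC1 by 1.49, 4 of 6 in all, beside 30.2% of all genes. After the GC trend was subtracted 5 of 6 were higher, beside 56.3% of all genes called in either direction. Of the 4 shared targets, BBC3 was higher on day 30, GDF15 was lower and turned to 0.19 after the GC trend was subtracted, and TNFRSF10B and SESN2 did not pass (-0.29 and -0.31, adjusted p = 0.293 and 0.201 in limma). With NCD38 on day 4, CHAC1 (-1.64), DDIT3 (-1.04) and ATF3 (-1.02) were at least 2-fold lower, beside 5.41% of all genes in either direction. Among the 4 shared targets SESN2, TNFRSF10B and BBC3 had ratios of -1.01, -0.61 and -0.34 in that library, and GDF15 had 0.23. CHAC1 was also at least 2-fold lower with NCD38-β2PIPP on day 4 (-1.23), beside 11.2% of all genes in either direction.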

How the data were processed

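The authors prepared stranded mRNA libraries from RKO cells and deposited FPKM per gene from Cufflinks. Their text names TopHat as aligner, while the submitters' processing notes list HISAT2 2.2.1.0, so the aligner of these values is not settled. FPKM carries no counts, and a listed 0 can be an estimate that failed. All 8 libraries were mapped to conditions, and 90 entries with repeated names were left out. From the deposited FPKM, log2(FPKM + 1) was compared with same-day DMSO (2-fold rule) and fitted with limma 3.58.1 in R 4.3.3 (treatment and day, variance trend, residual df 3, genes with mean FPKM of at least 1, Benjamini-Hochberg over all genes). The fit was tested on simulated data. P-values of the fit with treatment and day rest on the spread of inhibitor effects between the days. Those of the interaction rest on the spread between the 3 inhibitors of a day. Neither is a spread between replicate cultures of a condition. Depth, estimated from the FPKM of single fragments, was 12500000 to 22700000 fragments per library. It gave the counting half-widths, which are approximate. GC content and lengths came from GENCODE 44 on GRCh37, for 92.7% of expressed genes. Motifs were searched in RefSeq promoters.

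Members and gene lists were chosen with earlier results of these data known, and 2 genes of the lists are not reported here. Named were the 9 targets, MDM4, KDM1A, the markers, up to 5 genes per list past each rule by size of change, and the 5 genes most correlated with CDKN1A. PERP, XPC, POLH, CHEK1 and CHEK2 were named after their values were seen. Alternatives covered pseudocount, scaling, filters, variance prior, comparator, GC content and each library left out.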

Additional observations from a re-analysis of the deposited data

Results flagged for a closer look

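BBC3 was the one gene among the 9 targets, MDM4 and KDM1A for which the 3 inhibitors moved one way on day 30 and the opposite way on day 4. On day 30 its log2 ratios to DMSO were 0.0025, 0.0454 and 0.051 with NCD38, NCD38-β2P4 and NCD38-β2PIPP, all within their counting half-widths of 0.124 to 0.145. Those with NCD38 and NCD38-β2P4 changed sign when the median of all genes was set to 0. After the GC trend was subtracted the day 30 ratios were -0.0061, 0.11 and 0.051, so this shared direction depends on the processing. On day 4 the ratios as deposited were -0.34, -0.27 and -0.23, each beyond its half-width. The difference of the inhibitor effect between the days was 0.312 ± 0.258 (SE, adjusted p = 1 in limma), so it did not pass the test. The 3 ratios of a day share 1 DMSO library.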

How the results depend on the processing

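With 1 library per condition, calls within a day rest on the 2-fold rule without a test, and the half-widths cover counting error alone. The count of targets at least 2-fold from same-day DMSO, 1 of 54, became 3 with a pseudocount of 0.1, 4 with 0.01, 21 against DMSO of the other day, and 0 after the GC trend was subtracted or with targets of FPKM of at least 1 in all 8 libraries. Against the other day's DMSO library, MDM2 with NCD38-β2PIPP on day 4 was -0.32. The 7 targets called between days became 4 of 6 with an FPKM of at least 1 in all 8 libraries, where 3 targets were not tested, 3 of 9 after the GC trend was subtracted, and 4 to 8 when 1 library was left out. It was 4 without the DMSO library of either day, when MDM2, GDF15 and SESN1 were lost. After the GC trend was subtracted, the day differences of GDF15, TP53I3, SESN1 and TNFRSF10B changed sign (0.19, 0.398, -0.29 and 0.018). For the mean of the inhibitors, no value passed in any alternative, and small estimates changed sign, BAX to 0.0052 and SESN1 to -0.055 after the GC trend was subtracted. With 1 library left out, BAX ran from -0.102 to 0.0945, BBC3 from -0.28 to 0.033, TP53I3 from -0.204 to 0.0343 and TNFRSF10B from -0.15 to 0.187. In all 7 inhibitor and compound comparisons the count of targets called was 0 under every alternative run. With 1 library per condition there are no replicate numbers to pair, and the fit already paired the days by treatment and the treatments by day. The cause of these changes was not tested.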
